A study of Sus scrofa with 32 samples.

Results

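CD8 αβ T cells of pig blood were selected by transcript from single-cell RNA-seq libraries of peripheral blood mononuclear cells (PBMCs) of 2 pigs. A barcode was kept when it passed the fixed minimums of unique molecular identifiers (UMIs, each counting 1 captured RNA molecule) and of genes and the fixed maximum of the mitochondrial share of UMIs. A kept cell was called CD8 when it held at least 1 UMI of CD3E and of CD8B and no UMI of CD4, TRDC or CD79B. The rule found 1097 cells among 13243 kept cells of blood, 432 of 6443 in pig 1 and 665 of 6800 in pig 2, and the 8 libraries of the series held 48629 kept cells in all. Within these cells, a naive state was called from at least 1 UMI of CCR7 or LEF1 with fewer than 3 UMIs of CCL5, and an effector state from at least 3 UMIs of CCL5 with none of CCR7 or LEF1.

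The study compared lymphocytes of the ileum with those of blood. Both animals were mixed-breed pigs of 7 weeks, pig 1 a female and pig 2 a male, and the labels give no treatment or genetic change for either. From each pig came 1 library of PBMCs, isolated in Cell Preparation Tubes, and 3 libraries of ileum, 1 of dissected Peyer's patches (PP), 1 of ileum free of such patches (non-PP) and 1 of whole ileum. Ileal cells, unlike PBMCs, were freed from tissue by warm incubations with EDTA, enzyme digestion and mechanical dissociation. They were then enriched on a density gradient and cleared of dead cells. Tissue and cell preparation thus cannot be told apart in any comparison of blood with ileum. Cells of 1 library share their animal, so the pig was the replicate (n = 2) in every test, and a difference between the pigs cannot be told apart from a difference between the sexes. The PBMC libraries held 36465389 UMIs in pig 1 and 38240907 in pig 2. No barcode was shared by the CD8 cells of both PBMC libraries, although 66 barcodes of kept cells were.

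CD8 αβ T cells recognise peptides on MHC class I molecules and kill infected or altered cells by releasing granules that hold perforin, granzymes, granulysin and related proteins. Naive cells circulate between blood and lymph nodes, which they enter through the chemokine receptor CCR7 and other receptors and leave through the sphingosine 1-phosphate receptor S1PR1, under the transcription factors TCF7, LEF1 and KLF2. After activation, effector and memory cells make chemokines such as CCL5, take up transcription factors such as TBX21, PRDM1 and ZEB2, and exchange lymph node receptors for receptors of inflamed tissue or of mucosa. In pigs, CD8B separates CD8 αβ T cells from the γδ T cells and NK cells that also carry CD8A.

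The values that chose the cells are given as description only. Over all CD8 cells of blood, CD3E stood at 605 counts per 1000000 UMIs of the summed cells (CPM) in pig 1 and 667 in pig 2, and CD8B at 303 and 380.4. In build Sscrofa11.1, CD8B lies on chromosome 3 from 57968358 to 57986450, next to CD8A at 57999228 to 58029768 on the same chromosome, and CD3E on chromosome 9 from 45619730 to 45633972. T cell genes that the rule did not use gave the same picture of the label. CD8A, the partner chain of CD8B, stood at 470.2 and 582 CPM in pigs 1 and 2, against 17.8 and 17.1 CPM in B cells of the same libraries (CD79B without CD3E). CD3G, a chain of the T cell receptor complex, stood at 652 and 601 CPM, against 27.1 and 27.8 in B cells. RHEX, of the γδ T cell list, stood at 0 and 0 CPM in naive and 1.22 and 2.23 CPM in effector CD8 cells. In CD2+ γδ T cells of the effector state it stood at 34.8 and 214 CPM, the last value from 26 cells. The study reports RHEX as elevated in γδ T cells that lack CD2, so its low level says little of CD2+ γδ cells. GATA3, of the same list but also used by αβ T cells, stood at 43.9 and 30.5 CPM in effector CD8 cells and 48.9 and 95.7 in the γδ cells, and SOX13 was at 0 in both kinds of cell.

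Most of the cells were effector by the rule. In pig 1, 309 of 432 cells were effector, 73 naive, 43 met both state rules and 7 neither, and in pig 2 the counts were 505, 94, 55 and 11 of 665. The effector share was thus 71.5% (95% Clopper-Pearson interval 67.0 to 75.7%) in pig 1 and 75.9% (72.5 to 79.1%) in pig 2, and the naive share 16.9% (13.5 to 20.8%) and 14.1% (11.6 to 17.0%). These intervals cover counting error only. The pigs' intervals overlapped for both states.

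CCL5, on chromosome 12 from 39652731 to 39659121, split the cells into separate ranges with few cells between them. Effector cells held a median of 98 CCL5 UMIs in each pig, with quartiles of 71 and 131 in pig 1 and 63 and 140 in pig 2, while naive cells held a median of 1 in pig 1 and 0 in pig 2. At or above 30 CCL5 UMIs stood 322 cells of pig 1 (74.5%) and 532 of pig 2 (80%). Just inside the threshold, from 3 to 9 UMIs, stood 20 cells of pig 1 and 8 of pig 2, and just outside it, with 1 or 2 UMIs, 47 and 40. The 13 cells of pig 1 with 3 or 4 UMIs included 10 that also held CCR7 or LEF1, and only 3 that were called effector. At the other threshold, 18 naive cells of pig 1 and 27 of pig 2 rested on a single UMI of CCR7 or LEF1. B cells, which should lack CCL5, held 737 and 491 CPM of it, more than the naive cells chosen for little of it (192 and 111 CPM).

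**Figure D1:**
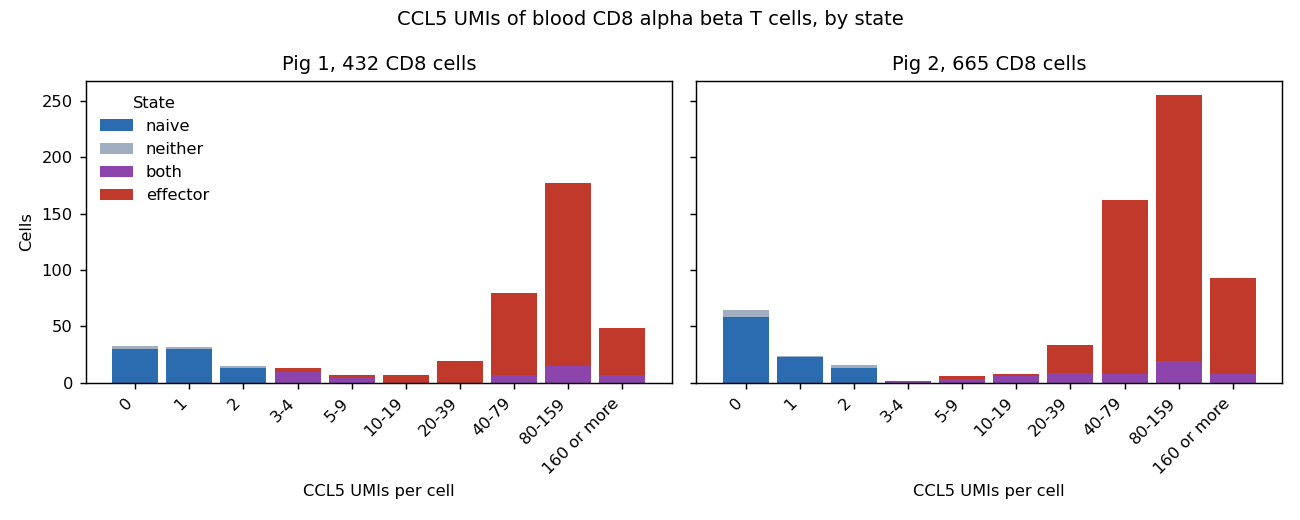
Number of blood CD8 αβ T cells (vertical axis) in ranges of CCL5 UMIs per cell (horizontal axis), 1 panel a pig, with bars stacked by state. Naive cells lie at 0 to 2 UMIs and effector cells at 3 or more by the rule, few cells lie from 3 to 19 UMIs, and the cells that met both rules spread over the range from 3 UMIs upwards.

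Cells that met both state rules were a mixture by CCL5, and 29 of 43 in pig 1 and 35 of 55 in pig 2 held 40 or more UMIs of it, as did 277 of 309 and 475 of 505 effector cells. Their medians were 4479 UMIs a cell in pig 1 and 8200 in pig 2, against 4058 and 4163 in effector and 3602 and 3836 in naive cells, and a doublet score above 0.25 was given to 3 of 43 and 8 of 55 of them. Granulysin (GNLY) stood at 6028 and 4608 CPM in them and TCF7 at 160.5 and 127. These 4 values are averages over that mixture and lay between those of naive and effector cells, which are given next. The cells that met both rules were left out of the comparisons of states.

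Effector cells were then compared with naive cells of the same blood, on counts summed per pig and state (291172 and 440895 UMIs in naive cells of pigs 1 and 2, 1641076 and 2687963 in effector cells). Part of the granule genes, NK receptors and effector transcription factors and most of the cytoskeleton and S100 genes were higher in effector cells, and 5 of 9 genes of naive cells and of circulation were lower. Of 6050 genes tested, 157 (2.6%) were higher in effector and 227 (3.75%) lower at an adjusted p below 0.05 (edgeR's quasi-likelihood test, Benjamini-Hochberg adjustment over all genes tested). The rule chose the states by CCL5, CCR7 and LEF1, which were left out of the test, and the values below describe what differed along with them. With the pig as a block, 447 genes (7.39%) were higher and 448 (7.4%) lower, and with 1 pig left out 43 and 65 (without pig 1) or 60 and 75 (without pig 2).

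Several genes of cytotoxic granules rose with the effector state. GNLY, which encodes the membrane-lysing granule protein granulysin (chromosome 3, 59067327 to 59072034), stood at 11806 and 15737 CPM in effector cells of pigs 1 and 2 and at 278 and 227 in naive cells. The groups lay far apart in each pig. The log2 difference was 5.64 ± 0.21 (SE derived from the test's F statistic, n = 2 pigs, adjusted p = 9.83e-07, edgeR). B cells of the same libraries, which should lack GNLY, held 779 and 1194 CPM, more than the naive cells. The level in naive cells was thus below that in cells that should lack the gene, and the size of this difference is one against a background. NKG7, a protein of granule membranes, stood at 1738 and 2500.0 CPM against 261 and 315 (log2 difference 2.74 ± 0.23). PRF1, the pore-forming perforin, stood at 192 and 389 CPM against 30.9 and 40.8 (2.86 ± 0.41). Both genes were higher in effector cells of each pig, without overlap of the groups. CST7, an inhibitor of the granule proteases (1.93 ± 0.25), and FASLG, the ligand of the death receptor FAS, rose too; FASLG held 1 UMI in all naive cells and 135 in effector cells. In all, 6 of the 12 granule genes tested rose and none fell, with a median log2 difference of 1.59 against 0.01 over all genes. Symbols of the annotation fell on more than 1 gene for GZMA, and its values are uncertain where reads could be split between copies: 1 entry rose (2.87 ± 0.55; 4.69 without pig 1 and 1.54 without pig 2) and the other stood at 106 and 520.1 CPM against 230.1 and 24.9, with the groups overlapping.

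The other granule genes did not separate the states in the same way. GZMB, granzyme B, stood at 2456 and 6028 CPM in effector and at 1085 and 2325 in naive cells. It was higher in effector cells of each pig, but naive cells of pig 2 came close to effector cells of pig 1, and the log2 difference of 1.18 ± 0.45 did not pass the test (adjusted p = 0.165, edgeR). It passed with no filter on low counts and with the pig as a block (1.15 ± 0.14, adjusted p = 1.62e-05). Granzyme M (GZMM) stood at 162 and 81.1 CPM in effector and 189 and 127 in naive cells, granzyme K (GZMK) at 70.7 and 89.3 against 124 and 72.6, and cathepsin W (CTSW), a protease of T and NK cells, at 899 and 842 against 1072 and 637. In each of these 3 genes the groups overlapped.

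Receptors shared with NK cells gave some of the widest gaps. KLRG1, an inhibitory receptor of differentiated T and NK cells, stood at 216 and 132 CPM in effector cells and 10.3 and 2.27 in naive cells (4.81 ± 0.51; 5.66 without pig 1, 4.25 without pig 2). KLRK1, the activating receptor NKG2D, stood at 709 and 90.4 CPM against 10.3 and 2.27 (6.005 ± 1.33; 5.11 without pig 1, 5.96 without pig 2, adjusted p = 0.0265, edgeR). KLRK1 was thus higher in effector cells of both pigs, but effector cells of pig 1 held several times as much as those of pig 2. CD244, a receptor of the SLAM family (296 UMIs in effector and 2 in naive cells), NCR3, the activating receptor NKp30 (2.91 ± 0.41), and FCER1G, a signalling adaptor (2.25 ± 0.58), rose as well, so that 5 of 12 tested rose and none fell (median 2.41). The size for FCER1G rested on pig 1: it stood at 399 and 145 CPM in effector and 17.2 and 79.4 in naive cells, and its log2 difference was 0.74 without pig 1 (adjusted p = 0.524, edgeR) and 4.40 without pig 2, with an adjusted p of 0.101 by DESeq2. FCGR3A, the Fc receptor CD16, stood at 1232 and 1451 CPM in effector and 999 and 1016 in naive cells and did not pass. FCER1G and FCGR3A are also on the list of NK cell markers, of which 4 of 6 held UMIs in naive cells and 6 and 5 in effector cells of pigs 1 and 2. That list summed to 1037 and 1291 CPM in naive and 1767 and 1728 in effector cells, with FCGR3A the most abundant, and to 7098 and 5823 CPM in NK cells of the same libraries. FCGR3A was not particular to NK cells: naive CD4 T cells, defined below, held 801 and 846 CPM of it in list sums of 846 and 944. The part of NK cells in the result was not tested.

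Transcription factors followed the same division. TBX21 (T-bet), which drives the cytotoxic programme, stood at 155 and 134 CPM in effector and 3.43 and 9.07 in naive cells, a log2 difference of 4.26 ± 0.40 (3.74 without pig 1, 5.31 without pig 2). ZEB2, which acts with T-bet in terminal effector cells, held 324 UMIs in effector and 3 in naive cells, and PRDM1 (Blimp-1) 157 and 1. BHLHE40 held 113 UMIs in effector cells and none in naive cells, which makes it at least 6.37-fold higher against a floor of 3 UMIs over the naive cells of both pigs. HOPX (2.22 ± 0.31) and ZNF683 (Hobit, 3.76 ± 0.88; 2.13 without pig 1, 9.46 without pig 2) rose too. Of 11 genes tested, 6 rose and 1 fell, with a median log2 difference of 2.22. The gene that fell was TOX, a factor of T cell development and of long stimulation, at 12.8 and 11.5 CPM in effector and 30.9 and 52.2 in naive cells (-1.94 ± 0.37). EOMES, the relative of TBX21, stood at 49.4 and 18.6 CPM in effector and 30.9 and 15.9 in naive cells, with the groups overlapping.

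Of 9 tested genes of naive cells and of circulation, 5 fell in effector cells. TCF7, the transcription factor TCF-1, stood at 323 and 263 CPM in naive and 40.8 and 23.1 in effector cells (-3.34 ± 0.35), and IL7R, the receptor of the survival cytokine interleukin 7, at 109.9 and 113 against 1.83 and 6.70 (-4.67 ± 0.41; -4.18 without pig 1, -5.90 without pig 2). Both genes were higher in the naive cells of each pig, without overlap. S1PR1 (-1.97 ± 0.20), FOXP1, which keeps T cells quiescent (-1.77 ± 0.27), and ID3, an inhibitor of E proteins (-3.81 ± 0.47), fell too (median of the 9 genes -2.03). CD28, SATB1 and LTB passed with the pig as a block, and not without it. KLF2, which maintains S1PR1 expression in T cells (chromosome 2, 61270733 to 61273037), stood at 354 and 356 CPM in naive and at 397 and 487 in effector cells and did not pass the test (adjusted p = 0.595, edgeR). S1PR1 in effector cells, at 72.5 and 65.1 CPM, was lower than the 271 and 222 CPM of naive cells. Barcodes with at most 100 UMIs held 47.3 and 63.7 CPM of it. A level in these barcodes is not the background of a cell, since B cells held far less GNLY than they did. The part of RNA from outside the cell in the S1PR1 level of effector cells was not tested.

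**Figure D2:**
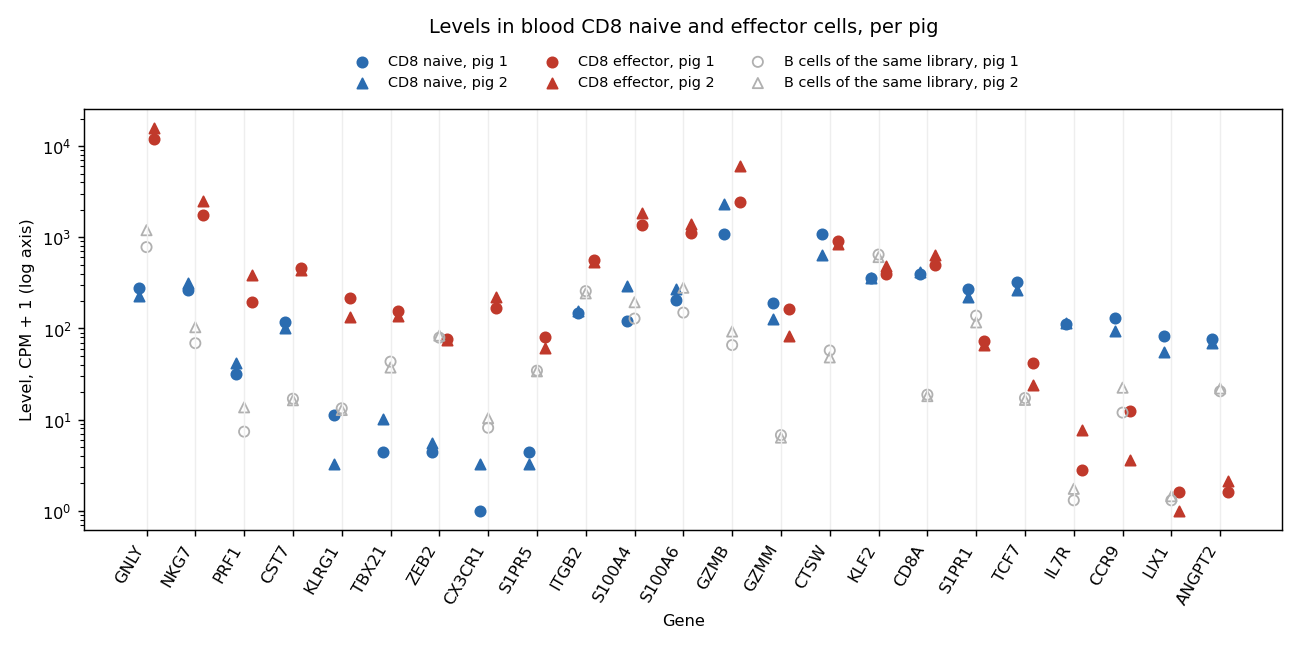
CPM (log axis of CPM + 1) of genes of the naive and effector states in blood CD8 αβ T cells of both pigs, 1 point a pig, with naive cells left, effector cells right and B cells of the same libraries as open symbols. TCF7, IL7R and S1PR1 lie lower and GNLY, NKG7, TBX21 and CX3CR1 higher in effector cells of each pig, while KLF2 lies between 354 and 487 CPM in both states.

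Homing receptors changed in both directions. CX3CR1, the receptor of fractalkine on inflamed endothelium (chromosome 13, 23944386 to 23957567), stood at 166 and 223 CPM in effector cells and at 0 and 2.27 in naive cells, where it rested on 1 UMI. Its ratio of 147 had a 95% counting interval from 26.4 to 5824, so that the size of this difference is known only roughly. S1PR5, the sphingosine receptor of effector and NK cells, held 293 UMIs in effector and 2 in naive cells (ratio 24.8, interval 6.80 to 206). Both chains of the integrin LFA-1, ITGAL (1.65 ± 0.30) and ITGB2 (1.72 ± 0.19), rose as well. CCR9, which directs cells to the small intestine, fell, from 131 and 92.99 CPM in naive to 11.6 and 2.60 in effector cells (-4.20 ± 0.53; -5.22 without pig 1, -3.60 without pig 2). Of 14 genes tested, 4 rose and 1 fell (median 0.42), and 5 rose and 4 fell with the pig as a block.

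Genes of other groups moved with the states as well. Of 10 tested genes of the cytoskeleton and the S100 family, 7 rose (median 1.44), among them the calcium-binding proteins S100A4 (1358 and 1867 CPM against 120.2 and 293), S100A6 and S100A11. Of 58 ribosomal protein genes, 43 fell and none rose, by a median log2 difference of -0.68, as in RPS27, a protein of the small subunit, at 4579.9 and 4889.6 CPM in effector and 8473 and 8598 in naive cells. The median mitochondrial share of a cell's UMIs moved with the states too, at 1.64% and 3.11% in naive and 3.99% and 5.29% in effector cells of pigs 1 and 2, and its part in the fall of ribosomal protein genes and in the other differences between the states was not tested. Of 8 chemokine and cytokine genes, CCL3L1, a chemokine of the CC family, rose (112 and 252 CPM against 6.87 and 9.07) and 1 entry under the shared symbol FLT3LG fell; with the block 4 rose and 2 fell. Of 5 inhibitory receptors, TIGIT rose, with 133 UMIs in effector and 2 in naive cells. Of 8 immediate early genes, CD69, a marker of recent activation (-2.09 ± 0.34), and the phosphatase DUSP2 (-1.79 ± 0.39; adjusted p = 0.0247, edgeR, and 0.0955 by DESeq2) fell. None of 14 genes of the T cell receptor complex, 5 of MHC class II or 12 interferon-stimulated genes passed the test, and 3, 1 and 3 of them did with the block. None of 10 cell cycle genes passed either (median 1.56), but 8 rose with the block, such as the replication factor PCLAF, at 634 and 429.7 CPM in effector and 251 and 213 in naive cells.

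**Figure D3:**
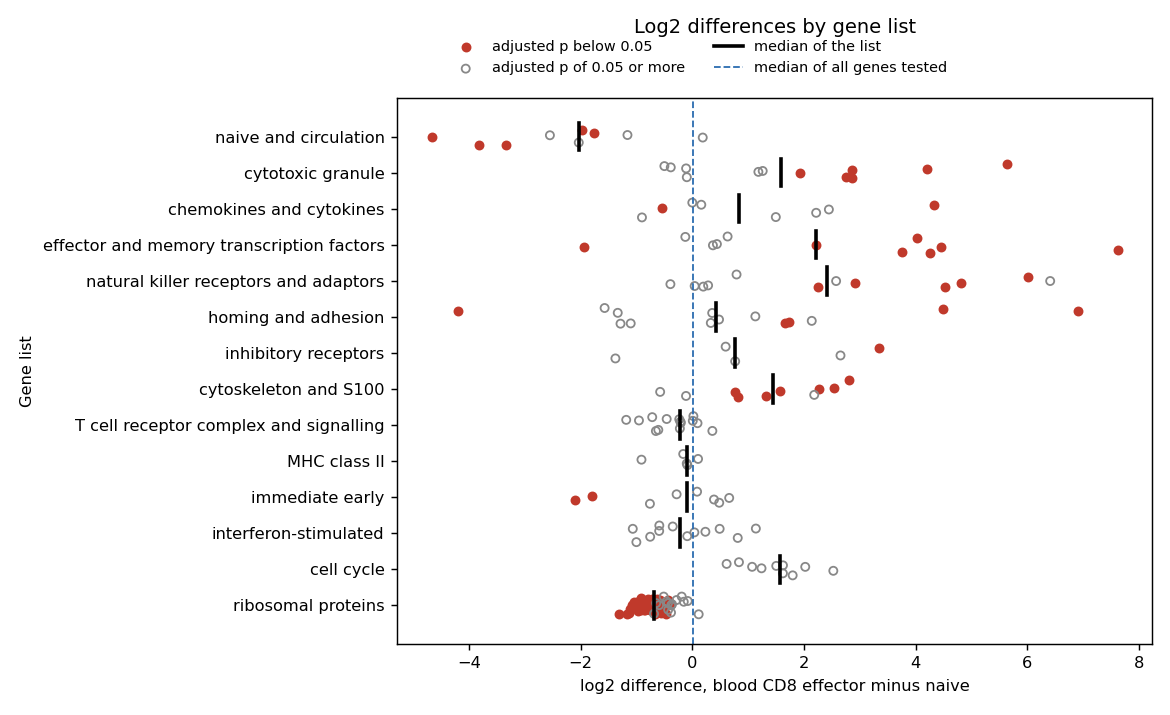
Log2 difference, effector minus naive, of every tested gene of each gene list in blood CD8 αβ T cells, 1 point a gene, with the list's median as a bar and genes at an adjusted p below 0.05 (edgeR) filled. Ribosomal and naive genes lie mostly below 0 (medians -0.68 and -2.03), and granule genes, NK receptors, transcription factors and S100 genes mostly above it.

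The genes with the largest changes also included some from outside the gene lists. Higher in effector cells were CCR3, a receptor of eotaxins (315 against 1 UMI), the kinase DAPK2 (292 against 1 UMI) and the adhesion receptor ADGRG1 (GPR56, 186 and 144 CPM against 6.87 and 4.54). Lower in effector cells was LIX1, at 82.4 and 54.4 CPM in naive cells and 1 UMI in all effector cells. ANGPT2, the vascular growth factor angiopoietin 2, stood at 75.6 and 68.04 CPM in naive and 0.609 and 1.12 in effector cells (-6.21 ± 0.41). PDK1, a kinase that inhibits pyruvate dehydrogenase (-5.40 ± 0.33), FADS3, of the fatty acid desaturase family (-5.06 ± 0.33), the protease KLK7 (-4.82 ± 0.50; -5.45 without pig 1, -4.22 without pig 2), FAM171B (-4.33 ± 0.71; -5.63 without pig 1, -3.50 without pig 2) and TPM2, a tropomyosin (-3.78 ± 0.36), completed the 10 largest decreases, with CCR9, IL7R and ID3 above. All of these were lower in effector cells of both pigs, without overlap. PLAC8, a lysosomal protein, fell from a high level in naive cells, at 4417 and 2697 CPM in naive and 397 and 643 in effector cells (-2.90 ± 0.48; -2.20 without pig 1, -3.60 without pig 2); it was picked after its values were seen.

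RNA of other blood cells was present in both states. The 4 erythroid genes summed to 11739 and 209 CPM in naive and 16202 and 2362 in effector cells, nearly all of it the haemoglobin gene HBB, with AHSP and HBM at 0 in naive cells of pig 2. B cells of the same libraries held 13089 and 1286 CPM. The 5 B cell markers summed to 30.9 and 20.4 CPM in naive and 122 and 24.9 in effector cells, with JCHAIN the most abundant and PAX5 at 0 in 3 of 4 groups. The 8 myeloid markers, 3 of them S100 genes, summed to 27.5 and 286 CPM in naive and 202 and 343 in effector cells, with CST3 the most abundant in pig 1 and LYZ in pig 2, and 6 of them were at 0 in naive cells of pig 1. The 3 platelet markers summed to 113 and 204 CPM in naive and 72.5 and 483 in effector cells, with PPBP the most abundant except in effector cells of pig 1. The 6 NK cell markers summed to 1037 and 1291 CPM in naive and 1767 and 1728 in effector cells, with KLRD1 and NCR1 at 0 in naive cells of both pigs. FCGR3A, which naive CD4 T cells also held, was the most abundant, and 1 of 4 tested, FCER1G, rose as given above. None of the markers of B, erythroid, myeloid or platelet cells passed the test between the states, HBB was higher in effector cells with the pig as a block, and their part in the differences was not tested.

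RNA from outside the cell, whether free in the droplets or from other libraries, bears on granule genes. Barcodes with at most 100 UMIs of these libraries held 10564 and 8227 CPM of GNLY and 1337 and 1687 CPM of GZMB in pigs 1 and 2. To set the levels in naive CD8 cells against this, the UMIs of each cell were thinned at random to the minimum that a kept cell must hold and the share of cells with a UMI was compared with B cells, which should express none of these genes, and with naive CD4 T cells (CD3E and CD4 without CD8B, 88 and 226 cells). Median depths before thinning were 3602 and 3836 UMIs in naive CD8 cells, 3471 and 4530 in B cells and 3234 and 3380.5 in naive CD4 cells. GNLY was found in 36.99% and 25.5% of naive CD8 cells after thinning, against 35.6% and 32.8% of B cells and 75.7% and 74.1% of effector cells. The share of naive cells with GNLY thus lay near that of B cells in pig 1 and below it in pig 2, so no expression is read from it.

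GZMB was different. After thinning, 73.97% and 86.2% of naive CD8 cells held it in pigs 1 and 2, against 5.43% and 8.24% of B cells, 15.9% and 23.9% of naive CD4 cells and 76.4% and 96.8% of effector CD8 cells. Without thinning the shares were 90.4% and 93.6% of naive CD8 cells, 12.3% and 22.6% of B cells and 26.1% and 47.8% of naive CD4 cells. In both pigs the naive CD8 cells lay far above the B cells, while their CPM of GZMB was below that of the effector cells, as given above. NKG7 stood between, at 30.1% and 28.7% of naive CD8 cells after thinning, 6.31% and 8.79% of B cells and 86.1% and 93.7% of effector cells. GZMM was found in 27.4% and 15.96% of naive and 21.04% and 8.32% of effector CD8 cells, and in under 1% of B and of naive CD4 cells. PRF1 remained low, in 2.74% and 4.25% of naive CD8 cells against 0.937% and 1.80% of B cells.

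**Figure D4:**
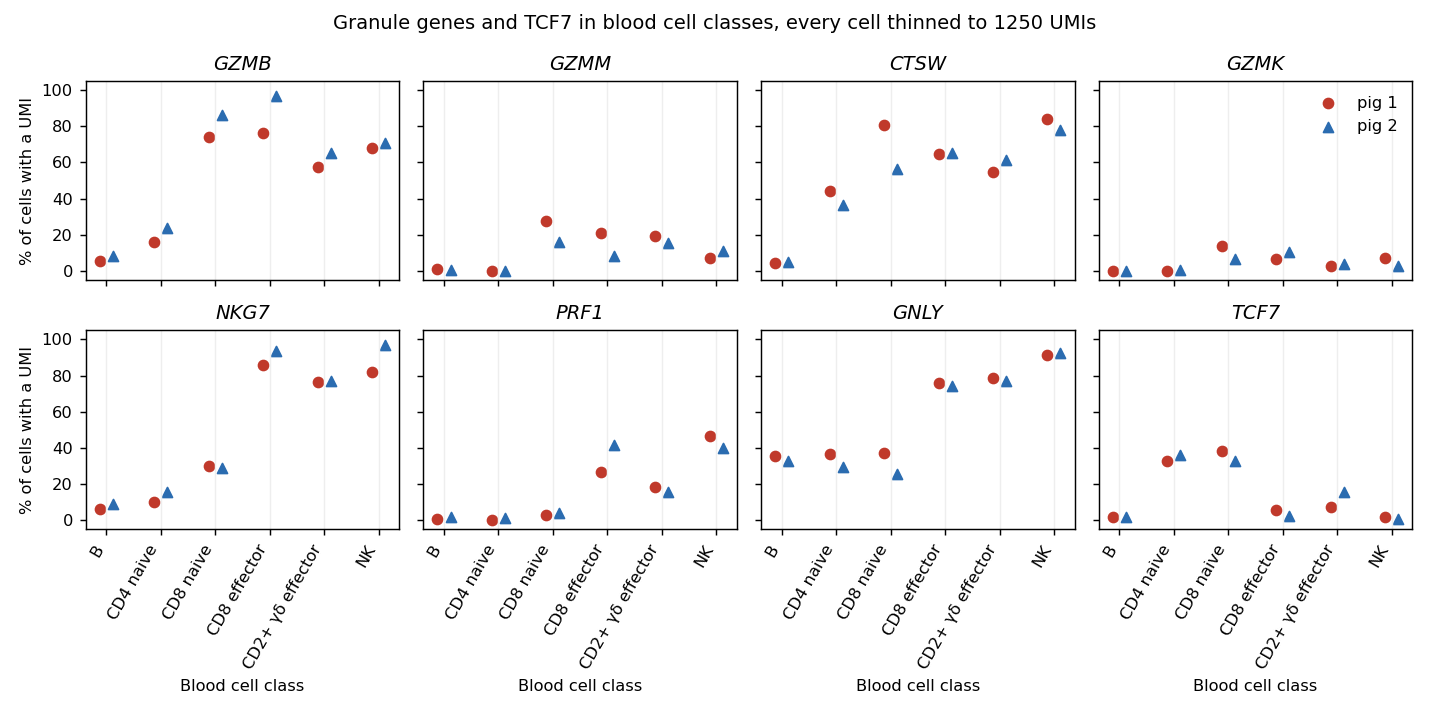
Percent of cells with at least 1 UMI of each of 7 granule genes and of TCF7 after thinning every cell to the same number of UMIs, in B cells, naive CD4, naive CD8, effector CD8 and CD2+ γδ effector T cells and NK cells of blood, 1 point a pig. GNLY in naive CD8 cells lies near or below the B cells, whereas GZMB in naive CD8 cells (74.0 and 86.2%) lies far above B cells (5.4 and 8.2%).

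Naive CD8 cells were compared with naive CD4 T cells to find what sets them apart from the cells most like them in state. The genes that passed the test were CD8A, the granule gene GZMM and a few others. Of 6050 genes tested, 5 (0.0826%) were higher in naive CD8 cells and 1 (0.0165%) lower (edgeR, adjusted p below 0.05), and 34 (0.562%) and 8 (0.132%) with the pig as a block. Without pig 1 only CD8A passed, and without pig 2 no gene did, with 289 at an unadjusted p below 0.05. CD8A stood at 391.5 and 413 CPM in naive CD8 and 27.2 and 22.9 in naive CD4 cells (4.06 ± 0.23). GZMM (chromosome 2, 77753817 to 77761436) stood at 189 and 127 CPM against 3.02 and 4.16 (5.32 ± 0.57; 4.92 without pig 1, 5.94 without pig 2, adjusted p = 0.0101, edgeR), and JAML, an adhesion and costimulatory receptor, at 175 and 120.2 against 9.07 and 3.12 (4.92 ± 0.68; 5.24 without pig 1, 4.28 without pig 2). Each of these was higher in naive CD8 cells of both pigs without overlap. The 2 others that rose were ENSSSCG00000001456 and ENSSSCG00000023584, for which no symbol was given. IL6R, the receptor of interleukin 6, was the gene that fell, at 20.6 and 24.9 CPM against 109 and 128 in naive CD4 cells (-2.34 ± 0.32, adjusted p = 0.0365, edgeR). IL6R lost the call without doublets, with CCR7 and LEF1 at 2 or more UMIs, with cells of both states counted as effector and without either pig.

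GZMB (chromosome 7, 74705499 to 74708781) stood at 1085 and 2325 CPM in naive CD8 and 139 and 229.6 in naive CD4 cells, with B cells at 64.8 and 91.6 CPM. The groups did not overlap, and the log2 difference was 3.21 ± 0.50, which missed the threshold without the block (adjusted p = 0.0652, edgeR) and passed it with the block (3.22 ± 0.16, adjusted p = 5.39e-09), by DESeq2, with no filter on low counts and without doublets. Only GZMM of the 12 granule genes passed without the block, and 7 of them rose with it: besides GZMM and GZMB these were CTSW, GZMK, PRF1, NKG7 and 1 GZMA entry. GNLY stood at 278 and 227 CPM in naive CD8 and 296 and 267 in naive CD4 cells, with the groups overlapping. The transcription factor EOMES and the receptor CD96 held no UMI in naive CD4 cells and 16 and 23 UMIs in naive CD8 cells, at least 9.42-fold and 13.5-fold higher against a floor of 3 UMIs over the group, and did not pass (adjusted p = 0.283 and 0.283, edgeR); both passed with the block, by DESeq2 and with no filter on low counts. MHC class II genes rose with the block in 3 of 5 cases, such as the invariant chain CD74, at 1147 and 1227 CPM in naive CD8 and 245 and 451 in naive CD4 cells (1.81 ± 0.17 with the block). Lower in naive CD8 cells with the block were CD40LG, the helper molecule of CD4 T cells (1 UMI against 111), and KLRG1 (10.3 and 2.27 CPM against 66.5 and 64.4). None of 9 genes of the naive list passed in either fit; TCF7, for example, stood at 323 and 263 CPM in naive CD8 and 317 and 341 in naive CD4 cells.

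Effector CD8 cells were compared with CD2+ γδ T cells of the effector state (183 cells in pig 1 and 26 in pig 2), the other T cells of blood rich in CCL5. Few genes passed the test: of 6049 tested, 1 (0.0165%) was higher and 1 (0.0165%) lower, and 211 had an unadjusted p below 0.05. The 211 are less than a share of 0.05 of the genes tested, the share expected if no gene differed. The genes that passed, ENSSSCG00000033721 and ENSSSCG00000023584, carried no symbol. With the pig as a block, 13 (0.215%) were higher and 18 (0.298%) lower, without pig 1 none and 1, and without pig 2, whose γδ cells were few, 3 and 1. GNLY stood at 11806 and 15737 CPM in effector CD8 and 10559 and 14386 in γδ cells, CX3CR1 at 166 and 223 against 202 and 147, and TBX21 at 155 and 134 against 155 and 118. In all 3 genes the groups overlapped.

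The genes that differed with the block included granzymes, T cell receptor signalling genes and genes that the study reports as elevated in γδ T cells lacking CD2. GZMB stood at 2456 and 6028 CPM in effector CD8 and 852 and 1377 in γδ cells (1.85 ± 0.14, adjusted p = 1.68e-06 with the block, 0.606 without it, edgeR). It was higher in CD8 cells of both pigs, without overlap. CD5, which dampens T cell receptor signals, stood at 80.4 and 150.3 CPM against 21.6 and 51.5 (1.95 ± 0.28 with the block), and PRF1, GZMK, CD6, CD8A, PDCD1 and CCL3L1 were higher too. Lower were RHEX (1.22 and 2.23 CPM against 34.8 and 214) and the kinase BLK, which are those genes. ID3 (7.92 and 16.7 against 92.1 and 169, log2 difference -3.32 ± 0.26), HOPX, ZNF683 and KLRK1 were lower as well. HBB was among the genes higher in CD8 cells and the myeloid gene LYZ among those lower (86.5 and 144 CPM against 225 and 589), and the part of RNA from red or myeloid cells was not tested.

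The same rule was applied to the ileum of the same pigs. Before these comparisons, 1 ileal library has to be set apart: in whole ileum labelled pig 1, the female, the 4 Y-linked genes found in the matrices summed to 206.6 CPM over the library, against 0.161 in PP and 0.224 in non-PP tissue and 0 in PBMCs of the same pig, and 119.4 to 225.7 CPM in the libraries of pig 2. That library went against its label, and calls on ileum, by gene list and in total, are therefore also given without both whole ileum libraries. Marker sums and levels include them, and with the pig as a block the ileal cells labelled pig 1 cannot be taken as all from that animal. Ileal sums held 1390 CD8 cells labelled pig 1 and 1098 of pig 2, of which 1284 and 986 were effector and 47 and 41 naive.

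CD8 cells made up 6.71% and 9.78% of kept cells in blood of pigs 1 and 2 and 8.16% and 5.98% in the pooled libraries of ileum. The ileal libraries differed widely in this share. It was 16.9% and 13.9% in non-PP tissue, above both blood values, 3.52% and 4.22% in PP tissue, below both, and 8.12% and 3.67% in whole ileum, so that the overlap of the tissues holds for the pooled values. A naive state was called for 16.9% and 14.1% of CD8 cells in blood and 3.38% (95% interval 2.49 to 4.47%) and 3.73% (2.69 to 5.03%) in ileum, a difference of 11.96 percentage points. The effector share was 71.5% and 75.9% in blood and 92.4% (90.9 to 93.7%) and 89.8% (87.9 to 91.5%) in ileum, 17.4 points lower in blood. In both shares every blood value lay on 1 side of the ileal values. The exact permutation test, two-sided, of 2 blood values against 2 ileal values gave p = 0.3333, the smallest it allows. Both sets of values are labelled with the same 2 pigs, and the test left out this pairing. After thinning all cells to 1 depth, the naive difference was 8.69 points, and without whole ileum 12.8 points. Without whole ileum the naive share in ileum was 1.74% in pig 1 (16 of 920 cells) and 3.68% in pig 2 (30 of 815). Non-PP tissue was nearly all effector, 98.2% and 97.7% of 662 and 525 CD8 cells with 0% and 0.19% naive; 0 of 662 cells allows a share of up to 0.453%, where 3 cells are taken as the limit of a count of 0. PP tissue held 6.20% and 10.0% naive cells and whole ileum 6.60% and 3.89%.

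Effector CD8 cells of blood differed from those of ileum in 905 of 7015 genes: 419 (5.97%) were higher in blood and 486 (6.93%) lower (edgeR, adjusted p below 0.05). With the pig as a block the counts were 763 (10.9%) and 828 (11.8%), and without whole ileum 302 (4.31%) and 357 (5.09%); without pig 1 they were 179 and 179, and without pig 2 122 and 171. KLF2 led the circulation genes, at 397 and 487 CPM in blood and 6.50 and 4.90 in ileum, a 74.96-fold difference (6.23 ± 0.24, adjusted p = 4.38e-07; 6.34 without whole ileum). S1PR1, which KLF2 maintains and which lets cells leave tissue, stood at 72.5 and 65.1 CPM against 11.3 and 11.4 (2.58 ± 0.26). Blood was higher in both pigs for KLF2 and S1PR1, without overlap. TCF7 and IL7R went the other way, at 40.8 and 23.1 CPM in blood against 121 and 141 in ileum and 1.83 and 6.70 against 38.99 and 51.99. Of the 11 genes of the naive and circulation list, 3 were higher in blood and 3 lower, with and without whole ileum, with a median of -0.48 against -0.02 over all genes (-0.29 against -0.01 without whole ileum).

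Of 15 homing and adhesion genes, 8 were higher in blood and 6 lower, and 7 and 5 without whole ileum. CX3CR1 stood at 166 and 223 CPM in blood and 0.629 and 1.31 in ileum (7.63 ± 0.39), and S1PR5 held 293 UMIs in blood and 2 in the larger ileal sums (ratio 265, 95% counting interval 72.7 to 2198). ITGB2 stood at 565 and 528 CPM against 30.8 and 28.1 (4.20 ± 0.20). Lower in blood were ITGAE, the integrin chain that binds E-cadherin of epithelium (chromosome 12, 49810050 to 49878142), at 22.5 and 22.7 CPM against 398 and 286 (-3.92 ± 0.24), CCR9 (-4.05 ± 0.44; -5.14 without pig 1, -3.29 without pig 2), CXCR4 (-3.13 ± 0.33; -3.84 without pig 1, -2.44 without pig 2) and CXCR6 (-2.44 ± 0.45). All of these were lower in blood of both pigs. CCR3, one of the genes that marked effector cells in blood, stood at 66.4 and 76.6 CPM in blood and 1.26 and 0.981 in ileum (5.87 ± 0.34).

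The granule genes were divided. GNLY was higher in blood, at 11806 and 15737 CPM against 3230.5 and 2958 (2.15 ± 0.23), and so was NKG7 (1.14 ± 0.19; 0.85, adjusted p = 0.126, without pig 2, edgeR). GZMB was lower, at 2456 and 6028 CPM against 10498 and 10806 (-1.33 ± 0.39, adjusted p = 0.0486, edgeR). Its log2 difference was -0.81 without pig 1, -2.11 without pig 2 and -1.32 without whole ileum (adjusted p = 0.202 for the last, edgeR). By DESeq2 its adjusted p was 0.0569. GZMK was lower as well (-1.52 ± 0.27), at -1.37 without whole ileum (adjusted p = 0.0633, edgeR). The GZMA entry that overlapped between the states in blood stood at 106 and 520.1 CPM in blood against 3824 and 4009.8 in ileum. The other GZMA entry stood at 1327 and 2695 against 2229.8 and 1978. PRF1, at 192 and 389 CPM in blood and 179 and 256 in ileum, overlapped. Of 12 granule genes, 2 were higher in blood and 4 lower, and 2 and 2 without whole ileum. Of 11 effector and memory transcription factors 5 were higher in blood, also without whole ileum, TBX21 at 155 and 134 CPM against 18.2 and 16.3 (3.05 ± 0.27), ZEB2 (3.63 ± 0.24), ZNF683 (5.01 ± 0.58; 4.04 without pig 1, 5.65 without pig 2), EOMES and HOPX, and TOX was lower (-1.63 ± 0.27; adjusted p = 0.0936 without pig 2, edgeR). With the pig as a block 6 of these factors were higher, with IKZF3 added, and 3 lower, with ID2 and RUNX3 besides TOX. KLRG1 was higher in blood (5.30 ± 0.38).

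Most tested genes of the immediate early list and of the T cell receptor complex were lower in blood. Ileal cells were incubated warm and digested with enzymes before capture, unlike blood cells, so tissue and preparation cannot be told apart. Of 11 immediate early genes, 8 were lower and none higher (median -2.45), and 7 of 10 without whole ileum, such as CD69 (15.8 and 23.8 CPM against 185 and 217) and TNFAIP3, an inhibitor of NF-κB signalling (24.4 and 21.9 against 401 and 369). Both lay lower in blood of each pig, without overlap. RGS1, which dampens chemokine signals and was picked after its values were seen, stood at 38.4 and 17.1 CPM against 736 and 771 (-4.80 ± 0.37; -5.45 without pig 1, -4.27 without pig 2). Of 14 genes of the T cell receptor complex and its signalling, 11 were lower in blood (median -1.05), 9 of them without whole ileum, with CD3D at 142 and 148 CPM against 412 and 370.4 (-1.44 ± 0.21). Of 8 chemokine and cytokine genes, 4 were lower, and 2 without whole ileum. XCL1, which attracts dendritic cells, led them (-4.32 ± 0.50, -5.30 without pig 1, -3.64 without pig 2). IFNG, interferon gamma, was among the 4 (-1.75 ± 0.42, -1.54 without whole ileum, -1.83 without pig 1, -1.64 without pig 2). Its adjusted p was 0.0855 without whole ileum by edgeR and 0.558 by DESeq2. S100 and cytoskeleton genes were higher in blood in 8 of 10 cases (median 2.56) and in 8 of 11 without whole ileum, with S100A4 at 1358 and 1867 CPM against 53.9 and 66.7.

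Genes of other cells moved with the tissue. The 4 erythroid genes summed to 16202 and 2362 CPM in effector cells of blood and 11.5 and 147 in those of ileum, with HBB the most abundant and AHSP at 0 in ileum, and all 4 were higher in blood. The 8 myeloid genes summed to 202 and 343 CPM against 87.6 and 232, with CST3 or LYZ the most abundant and S100A8, S100A9 and S100A12 at 0 in ileum, and 3 of 5 tested were higher in blood. The 3 platelet genes summed to 72.5 and 483 against 44.02 and 46.4, and the platelet chemokine PPBP was higher in blood. The 5 B cell markers summed to 122 and 24.9 CPM against 95.8 and 681, with JCHAIN the most abundant, and MS4A1 (CD20) was lower in blood. The 6 CD4 and regulatory T cell markers summed to 102 and 86.7 CPM against 149 and 151, with IKZF2 the most abundant, and CTLA4 and IL2RA, both at 0 in blood of pig 1, were lower in blood. The 6 NK cell markers summed to 1767 and 1728 CPM against 2243 and 2600.3, with FCGR3A (CD16) the most abundant and lower in blood. CD4 T cells of ileum also held FCGR3A, at 1423 and 1985 CPM. Without whole ileum the 4 erythroid genes, 2 of 5 myeloid genes, PPBP, CTLA4 and IL2RA passed, and neither MS4A1 nor FCGR3A was among the genes that did. The epithelial genes FABP6, which binds bile acids (2 UMIs in blood, 1767 and 334 CPM in ileum), TFF3, a goblet cell peptide (none in blood, 529 and 21.3 CPM in ileum), the keratin KRT8 (none in blood, at least 104-fold lower) and SPINK4 (2 UMIs in blood against 486), and GPR82, a receptor without a known ligand, were the 5 genes with the largest decreases. TFF3 rested on pig 1 and lost the call without it (adjusted p = 0.0609, edgeR), as did SPINK4 (0.109), and both lost it by DESeq2 (0.103 and 0.0863). PPBP, FCN1 (a lectin of monocytes, 361 UMIs against 1), the haemoglobin gene HBM (352 against 2), S1PR5 and CX3CR1 were the 5 with the largest increases. HBM, with a log2 difference of 3.40 in place of 8.24, lost the call without pig 1, and HBM and FCN1 lost it by DESeq2 (0.226 and 0.121). The part of RNA from red cells, platelets, monocytes, epithelium, B cells or other lymphocytes in the results between blood and ileum was not tested.

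Naive CD8 cells were few in ileum, and here too tissue and cell preparation cannot be told apart. Between blood and ileum, 10 of 7015 genes (0.143%) were higher in blood and 54 (0.77%) lower, 34 (0.485%) and 103 (1.47%) with the block, and 2 (0.0285%) and 23 (0.328%) without whole ileum. Without pig 1 no gene passed, with 727 at an unadjusted p below 0.05, and without pig 2 only JUN did. Of 11 immediate early genes, 6 were lower in blood (median -2.58), and 5 of 10 without whole ileum. JUN stood at 34.3 and 77.1 CPM in blood and 792 and 735 in ileum (-3.81 ± 0.30; -3.26 without pig 1, -4.58 without pig 2), and CD69 at 78.99 and 79.4 against 442 and 442 (-2.58 ± 0.24). Blood was lower in both pigs for each, without overlap. The nuclear receptor NR4A1, the signalling regulator RGS2 and the stress factor ATF3 held no UMI in naive cells of blood and 33, 30 and 29 in those of ileum, at least 23.3-fold, 21.1-fold and 20.4-fold lower in blood against a floor of 3 UMIs over the group. NR4A2 held 3 UMIs in blood against 116. The heat shock gene HSP70.2 stood at 3.43 and 22.7 CPM against 1018 and 722. Its log2 difference was -5.98 (adjusted p = 0.0308, edgeR), and -6.45 without whole ileum (adjusted p = 0.155, edgeR). RGS1 (-5.24 ± 0.47; -4.48 without pig 1, -6.57 without pig 2) and CXCR4 (-3.51 ± 0.39) were lower in blood too.

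Higher in naive cells of blood were S100A6 (203 and 268 CPM against 26.9 and 18.7, a log2 difference of 3.26, which turned to -0.67 after thinning), GIMAP4, a GTPase of lymphocytes (2.21 ± 0.26), SAMHD1, an enzyme that breaks down nucleotides (59 UMIs against 3), the kinase STK38 (2.21 ± 0.38) and the actin-binding protein FLNA (2.21 ± 0.40). Without whole ileum, which left 16 and 30 naive cells of ileum, only GIMAP4 of these 5 passed the test. The log2 differences were then 3.38 for S100A6, 2.65 for GIMAP4, 3.80 for SAMHD1, 2.56 for STK38 and 1.75 for FLNA. None of the 11 genes of the naive and circulation list passed. TCF7 stood at 323 and 263 CPM in blood and 221 and 280.2 in ileum, and IL7R at 109.9 and 113 against 124 and 68.5, both with overlapping groups. KLF2 stood at 354 and 356 CPM in blood and 156 and 181 in ileum and did not pass (adjusted p = 0.0788, 0.0297 with the block, edgeR); it also passed by DESeq2, with no filter on low counts and with cells of both states counted as effector, and had an adjusted p of 0.205 without whole ileum. GZMB stood at 2294 and 2671 CPM in naive CD8 cells of ileum, next to 1085 and 2325 in blood. After thinning, 82.98% and 95.1% of these ileal cells held it, against 16.8% and 15.4% of ileal B cells.

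Markers of other cells moved between the naive cells of the tissues as well. The 5 B cell markers summed to 30.9 and 20.4 CPM in blood and 156 and 4688 in ileum, nearly all of the last value being JCHAIN, the joining chain of secreted antibodies. The 4 erythroid genes summed to 11739 and 209 CPM in blood, with HBB the most abundant, and held no UMI in ileum. The 3 platelet genes summed to 113 and 204 CPM in blood and 26.9 and 56.03 in ileum, where PPBP and GP9 were at 0. The 8 myeloid markers summed to 27.5 and 286 CPM in blood and 43.1 and 31.1 in ileum, where S100A8, S100A9 and S100A12 were at 0. None of these markers passed the test, and with the pig as a block JCHAIN was lower and HBB, PPBP and the NK and myeloid adaptor TYROBP were higher in blood. Their part in the differences between naive cells was not tested.

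**Figure D5:**
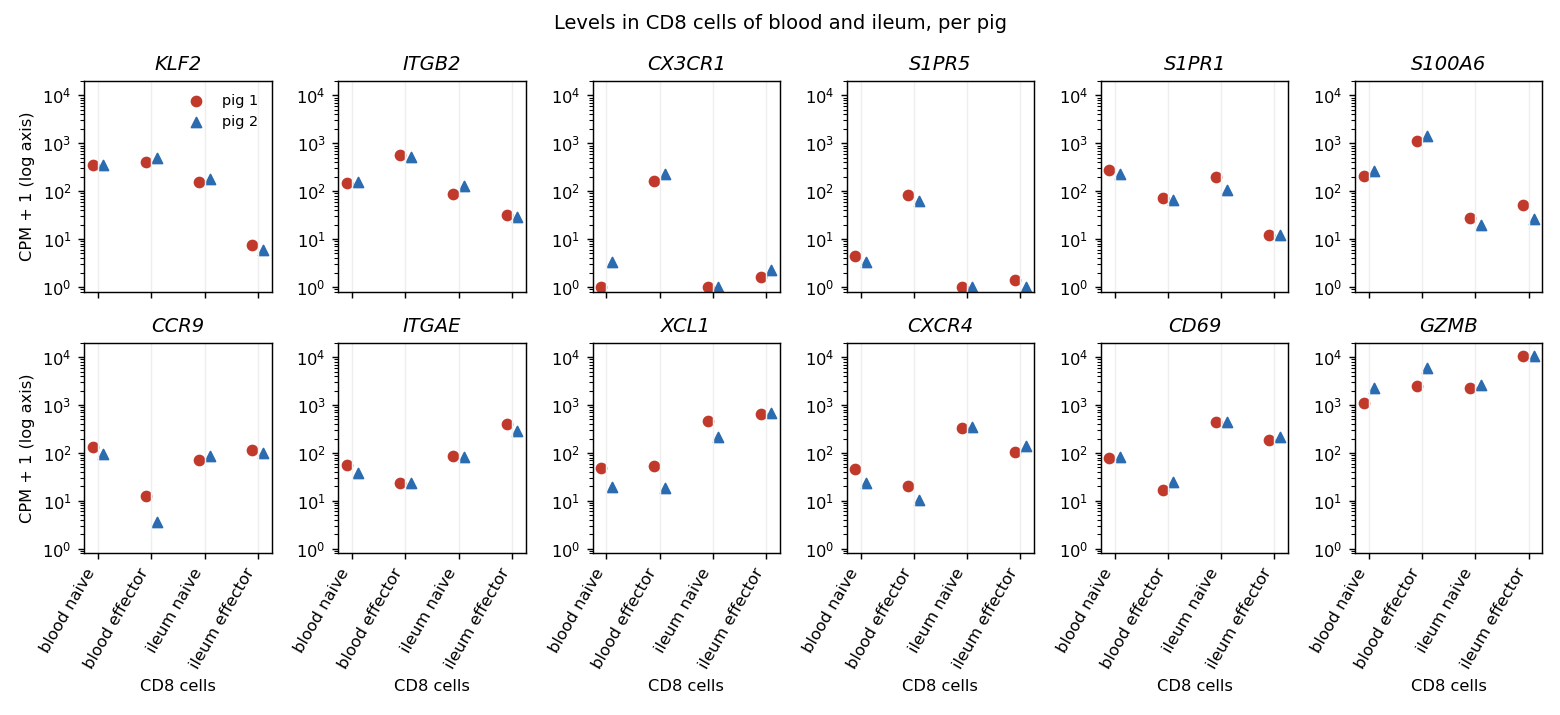
CPM (log axis of CPM + 1) of genes in naive and effector CD8 αβ T cells of blood and ileum, 1 point a pig. KLF2 lies between 354 and 487 CPM in both states of blood and at 4.90 and 6.50 CPM in effector cells of ileum, ITGAE lies highest in effector cells of ileum, and CX3CR1 is high in effector cells of blood alone among the 4 groups.

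The effector-minus-naive difference itself was compared between blood and ileum, which tests whether the states part in the same way in both tissues. It differed for 12 of 7015 genes, 7 (0.0998%) with a more positive difference in blood and 5 (0.0713%) with a more negative one. With the block there were 17 (0.242%) and 22 (0.314%), and without whole ileum 3 (0.0428%) and 0 (0%). KLF2 stood first: it stood at 354 and 356 CPM in naive and 397 and 487 in effector cells of blood, while in ileum it was 156 and 181 CPM in naive and 6.50 and 4.90 in effector cells, a difference between tissues of 5.25 ± 0.32 log2 units (adjusted p = 5.1e-05, edgeR; 5.18, adjusted p = 0.000705 without whole ileum). ITGB2 behaved alike in sign (3.77 ± 0.31), with 148 and 154 CPM in naive and 565 and 528 in effector cells of blood and 86.2 and 125 and 30.8 and 28.1 in those of ileum. RASA3, a regulator of small GTPases, was the third gene that passed without whole ileum (4.27 ± 0.40). CCR9 fell from naive to effector cells in blood. In ileum it stood at 70.00 and 87.2 CPM in naive and 113 and 97.8 in effector cells. Its difference between tissues was -4.44 ± 0.65 (adjusted p = 0.0291, edgeR), and -4.075 without whole ileum (adjusted p = 0.136, edgeR). ITGAE likewise differed (-2.91 ± 0.42), at -2.99 without whole ileum (adjusted p = 0.13, edgeR).

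The effector cells of the pigs were not alike, which is given as description since each pig is 1 animal. KLRK1 stood at 709 CPM in effector cells of pig 1 and 90.4 in those of pig 2, whereas NK cells of both pigs held 1472 and 1353 CPM. KLRC1, an inhibitory receptor of the NKG2 family (261 and 20.8 CPM), KLRB1, the lectin-like receptor CD161 (65.2 and 10.8), and ZNF683 (122 and 43.9) were also higher in pig 1. Pig 2 was higher in GZMB, in the inhibitory receptor LAG3 (14.6 CPM in pig 1 and 100.4 in pig 2), and in interferon-stimulated genes such as ISG15 (449.7 and 1699) and CXCL10 (10.97 and 181). ISG15 was higher in pig 2 in naive cells too (288 and 1372 CPM) and in barcodes with at most 100 UMIs (541 and 1802 CPM). These barcodes, which hold too few UMIs to be kept as cells, also held more in pig 1 of KLRK1 (687 and 194 CPM), KLRC1 (207 and 57.5), KLRB1 (264 and 80.9) and ZNF683 (173 and 65.2). They held more in pig 2 of CXCL10 (185 and 942 CPM), LAG3 (8.35 and 22.8) and GZMB (1337 and 1687). Each of these genes thus differed between pigs in the same direction in effector cells and in these barcodes. The barcodes cannot be taken as free RNA of the blood libraries alone. They held 265 and 223 CPM of the gut epithelial gene FABP6, against 0.609 and 0.372 in effector cells of blood. In the female pig 1 they held 7.66 CPM of the Y-linked gene DDX3Y, which its kept blood cells lacked. The part of free RNA and of RNA from other libraries was not tested.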

How the data were processed

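Per the labels and the study's methods, cells were captured with 10x Chromium version 2 chemistry, each library was sequenced as 4 runs, and the authors deposited raw UMI counts per gene and barcode from CellRanger, mapped to Sscrofa11.1 with a modified annotation. The deposited counts cover 25880 genes and all barcodes, from before the authors removed ambient RNA, poor cells and doublets. Symbols came from the matrices for 17733 genes, from a name table for 969 and from a supplementary table of the study for 19; GZMH, IL32, CD160, SELPLG, BTLA, SLA-DRB1, SLA-DQA1, JUND, IFIT3, OAS1, CRIP1 and PF4 of the lists were not matched. The members and lists were chosen with earlier results of these data known.

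Cells were kept at 1250 UMIs, 550 genes and 12.5% mitochondrial UMIs and gated as described. Doublets were scored with Scrublet at an expected rate of 0.07 (scanpy 1.11.5) and left in. Counts were summed per pig and class and tested with edgeR 4.0.16 (filterByExpr, TMM, quasi-likelihood test, Benjamini-Hochberg adjustment over all genes tested, threshold 0.05) in R 4.3.3, in 1 fit of 4 blood classes and 1 of CD8 states in blood and ileum; the 8 gate genes were left out. The code was tested on simulated data. Named are members of the lists, and the 10 genes (effector against naive) or 5 (other comparisons) with a symbol and the largest differences in each direction, among those past the threshold, alike in sign in both pigs and at a mean of at least 50 CPM in the higher group. Samples with the same number come from the same pig, so the pig as a block was an alternative. Deviations of the pigs from the class means correlated at 0.200 to 0.421 between blood classes and at 0.0003 to 0.0388 with naive cells of ileum. Those of ileal effector cells correlated at 0.361 with effector and 0.189 with naive CD8 cells of blood. Other alternatives were DESeq2 1.42.0, RLE scaling, no filter, thinning, doublets left out, other state thresholds and each pig left out. Where p-values rest on 2 pigs, they measure the spread between these animals only. Each ± is the size of the log2 difference divided by the square root of the test's F statistic. It rests on a spread shared by the 4 groups of a fit and drawn towards that of other genes. It is thus not the error between the pigs of that gene alone. Some genes of the lists are not reported here and do not enter the counts of their lists. The authors' cell annotations were not used here.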

Additional observations from a re-analysis of the deposited data

Results flagged for a closer look

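The effector-minus-naive difference was not the same in blood and in ileum for 12 genes, by a test of the difference between tissues itself (edgeR's quasi-likelihood test, adjusted p below 0.05, 2 pigs a group). On the log2 scale, blood minus ileum, it was 5.25 for KLF2, 4.27 for RASA3, 3.88 for the RNA-binding protein YBX3, 3.85 for pleckstrin (PLEK), 3.77 for ITGB2, 3.60 for ADGRE5 (CD97) and 2.37 for the tumour necrosis factor receptor TNFRSF1B. In the other direction it was -1.88 for the splicing factor SNRNP70, -2.91 for ITGAE, -4.00 for KLK7, -4.29 for the transporter ABCB1 and -4.44 for CCR9. Without whole ileum, where 1 library went against its label, KLF2, RASA3 and ITGB2 of these passed and the other 9 did not. The log2 differences were then -4.075 for CCR9, -3.89 for ABCB1, -3.94 for KLK7, -2.99 for ITGAE and -1.70 for SNRNP70. They were 3.10 for YBX3 and 3.32 for PLEK. Without whole ileum and with the pig as a block, chosen after seeing the data, 9 of the 12 passed. With CCR7 and LEF1 at 2 or more UMIs, KLF2, RASA3, ITGB2, PLEK and TNFRSF1B passed and none of the 5 in the other direction did, and with cells of both states counted as effector ABCB1, KLK7, SNRNP70 and YBX3 lost the call. ABCB1 stood at 13.7 and 9.07 CPM in naive and 1.83 and 3.35 in effector cells of blood, and at 21.5 and 18.7 and at 108 and 108 in those of ileum.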

How the results depend on the processing

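With the pig as a replicate block, which pairs the samples labelled with 1 animal, the genes past the threshold were 895 for effector against naive cells, 42 for naive CD8 against naive CD4, 31 for effector CD8 against γδ cells, 1591 and 137 for effector and naive cells between blood and ileum, and 39 for the difference between tissues, in place of 384, 6, 2, 905, 64 and 12. The block ended no call among the named genes. With DESeq2 the counts were 214, 21, 7, 137 (naive cells, blood against ileum) and 51 (difference between tissues). With no filter on low counts they were 756, 58, 79, 1526, 256 and 135, and 58.6% of the 756 were higher in effector cells, against 40.9% before. With cells thinned to 1 depth, where fewer cells kept their class and 713 to 1117 genes were tested, they were 106, 1, 1, 176, 1 and 1, and S100A6 turned to -0.67 between naive cells of blood and ileum. With CCR7 and LEF1 at 2 or more UMIs, naive cells between tissues gave 36 and the difference between tissues 5. Without whole ileum these gave 25 and 3, and with the block as well, chosen after seeing the data, effector cells between tissues gave 1489 and these 115 and 35. Without doublets effector CD8 against γδ cells gave 1. Leaving out a pig gave 108 to 135, 0 to 1, 1 to 4, 293 to 358 and 0 to 1 for the first 5 comparisons, where the lone sample is assumed to vary like the other groups; it was not possible for the difference between tissues. RLE scaling, CCL5 at 5 or more UMIs and cells of both states counted as effector kept every count within 1.5 times, where that applied, and changed no direction, though single genes lost the call, such as IL6R and 4 of the 12 genes that differed between tissues with the last of these.

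Among the 45 genes called between the states, 12 lost the call without pig 1 (BHLHE40, CD69, DUSP2, FASLG, FCER1G, FOXP1, HOPX, ITGAL, PLAC8, PRDM1, TIGIT and ZNF683) and 10 without pig 2 (CCR3, BHLHE40, DUSP2, FASLG, FOXP1, ITGAL, NCR3, PRDM1, TIGIT and TOX). Of these 45, 13 moved by more than 1.5-fold without pig 1 and 16 without pig 2, among them TIGIT and LIX1, which rested on 2 and 1 UMIs in 1 state, and those given above with both values. Of 37 named genes called between effector cells of blood and ileum, GZMB, HBM, IFNG, SPINK4 and TFF3 lost the call without pig 1, IFNG, NKG7 and TOX without pig 2, and 11 and 10 moved by more than 1.5-fold: CCR9, CXCR4, XCL1, ZNF683, HBM and 1 GZMA entry in both cases, FABP6, KRT8, RGS1, S1PR5 and TFF3 without pig 1 and FCN1, GZMB, IL7R and PPBP without pig 2. The cause was not tested. The share of CD8 cells, 1.17 percentage points higher in blood, was -1.29 after thinning, and -1.46 to 3.80 with a pig left out. The naive share, 11.96 points higher in blood, was 9.01 with CCR7 and LEF1 at 2 or more UMIs and 8.69 after thinning, and the effector share, -17.4 points, -14.2 with that threshold and -20.8 to -13.9 with a pig left out. The small naive sums, of 291172 to 440895 UMIs in blood, limit what can be seen of genes under about 10 CPM.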
